A study of Mus musculus with 7 samples.

Results

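The BMP pathway and ID genes described here are 10 genes out of 34592 in the count table, picked by a list of names that uses no threshold on a measured value, although earlier results of these data were known when the list was made. They comprise the ligands Bmp4 and Bmp7, the type I receptors Bmpr1a and Bmpr1b, the inhibitory SMADs Smad6 and Smad7, and the target genes Id1, Id2, Id3 and Id4. RNA-seq was done on 7 mouse Group 3 medulloblastomas (G3 MBs), a cerebellar tumor model driven by Myc, to compare 4 tumors with enforced WDR11 (WDR11OE) with 3 control tumors. All 7 grew from tumorsphere line # 19568, which descends from granule neuron progenitors of early postnatal Trp53-/-; Cdkn2c-/- mice that received a Myc retrovirus. The paper's methods give its reporter as GFP (Myc-IRES-GFP), whereas a figure legend names RFP for this line. WDR11OE tumors carry human WDR11 behind the EF1 promoter in the lentivector pCDH-EF1-WDR11-T2A-copGFP. The controls are said in the protocol to carry the same vector without an insert, although their treatment is labelled as none. Infected cells were placed unsorted in the cortices of CD1-nu/nu mice, which are immunodeficient and of young adult age. The paper reports that only a part of the cells was infected. Tumors were taken when the mice became moribund, and chunks or cell pellets were stored. The abstract of the paper calls the sequenced material tumorspheres, while its methods call it tumor samples. The 7 tumors therefore come from 1 line, and p-values measure the spread between tumors of that line.

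BMPs are secreted ligands that bring type I and type II receptor kinases together, after which SMAD1, SMAD5 and SMAD9 are phosphorylated and enter the nucleus with SMAD4. ID proteins are among the best known products of this signal. They contain a helix-loop-helix without a DNA-binding region, and hold E proteins away from the partners with which these would activate differentiation genes. In the developing cerebellum BMP ligands restrain the proliferation of granule neuron progenitors, and SMAD6 and SMAD7 are feedback inhibitors that are themselves induced by the pathway.

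Because SMAD proteins bind GTCT and the GC-rich element GGCGCC, the promoters of Id2, Id3, Id4 and Smad6 were searched for both, and for the E-box CACGTG, on both strands. The RefSeq promoter table (GRCm38.p6) had an entry for 7 of the 10 genes. It had none for Id1, Bmp7 and Smad7, so Id1 was not searched. Each sequence below runs from 250 bases before to 50 bases after the RefSeq start, reads 5′ to 3′ on the gene's strand, and matched NCBIM37 once. Capitals mark matches to these motifs, with AGAC standing for GTCT on the other strand. The intervals are chr12:25780908-25781207 on the minus strand for Id2, chr4:135699487-135699786 on the plus strand for Id3, chr13:48356235-48356534 on the plus strand for Id4 and chr9:63869817-63870116 on the minus strand for Smad6. By the GENCODE vM1 gene coordinates given further below, the starts of Id2 and Smad6 match. The Id3 interval lies wholly inside the gene and the Id4 interval ends before the gene begins, so the sequences do not cover like regions.
Id2: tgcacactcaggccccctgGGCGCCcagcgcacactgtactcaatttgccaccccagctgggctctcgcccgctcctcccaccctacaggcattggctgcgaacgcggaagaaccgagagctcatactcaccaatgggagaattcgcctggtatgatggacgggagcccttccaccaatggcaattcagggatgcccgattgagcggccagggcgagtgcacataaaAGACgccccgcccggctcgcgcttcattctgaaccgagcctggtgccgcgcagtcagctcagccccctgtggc
Id3: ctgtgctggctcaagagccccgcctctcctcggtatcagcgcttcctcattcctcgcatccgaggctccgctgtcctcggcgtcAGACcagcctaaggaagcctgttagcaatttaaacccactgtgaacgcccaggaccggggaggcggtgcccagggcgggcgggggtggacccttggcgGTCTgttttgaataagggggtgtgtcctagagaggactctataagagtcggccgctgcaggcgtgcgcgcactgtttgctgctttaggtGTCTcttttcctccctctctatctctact
Id4: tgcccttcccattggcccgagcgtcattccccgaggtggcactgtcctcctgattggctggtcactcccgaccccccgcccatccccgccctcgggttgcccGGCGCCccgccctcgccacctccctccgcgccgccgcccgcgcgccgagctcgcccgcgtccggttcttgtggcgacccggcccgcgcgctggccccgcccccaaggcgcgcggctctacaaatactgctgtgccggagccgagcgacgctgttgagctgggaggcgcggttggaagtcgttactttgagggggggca
Smad6: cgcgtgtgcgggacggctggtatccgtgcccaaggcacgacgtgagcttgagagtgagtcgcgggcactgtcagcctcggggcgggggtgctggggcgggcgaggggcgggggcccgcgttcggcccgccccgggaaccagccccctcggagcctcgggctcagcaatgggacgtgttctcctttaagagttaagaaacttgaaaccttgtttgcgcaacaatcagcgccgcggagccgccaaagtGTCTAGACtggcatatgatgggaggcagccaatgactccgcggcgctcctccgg
Id2 and Id4 each held 1 GGCGCC, and Id3 and Smad6 held none. GTCT occurred 3 times in Id3, 2 times in Smad6, once on each strand and side by side, 1 time in Id2 and not in Id4. Of 32851 promoters of this length, 88% held GTCT, 11.9% held GGCGCC and 7.15% held CACGTG, which was in none of the 4.

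Total counts lay between 33417175 and 41397427 in the controls and between 32116095 and 87141305 in the WDR11OE tumors, so that 3 counts correspond to 0.0329 to 0.0924 CPM (the count of a gene scaled to a fixed library size). The smallest count of any of the 10 genes in any tumor was 52. The values for 3 counts cover counting error only, whereas the 95% intervals of fold changes given below come from the fit and include the spread between tumors. Wdr11 itself was at 58.9, 58.3 and 59.3 CPM in the controls and at 66.8, 61.0, 65.7 and 68.9 CPM in the WDR11OE tumors (log2 fold change 0.16, edgeR adjusted p = 0.0910), and reads of the human cDNA are not separated in these counts. Fold changes fell with exon GC content across 13328 protein-coding genes (Spearman rho −0.39, across genes, which are not independent replicates). Control and WDR11OE libraries carry numbers from separate runs of numbering, so that a batch and the condition cannot be told apart. WDR11OE replicates 1 and 2 share a number in their titles. In bulk tumor, fewer cells of a type and less RNA per cell cannot be told apart.

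Of the 10 genes, Id2 rose and Bmpr1b fell in WDR11OE tumors, and the other 8 did not pass the test. All 10 passed the filter on low counts. A call was an adjusted p under 0.05 in edgeR's quasi-likelihood test at any fold, and 33.9% of the 17389 genes tested were called, against 2 of these 10. The groups did not overlap for Id2 and Bmpr1b, compared with 42.7% of all genes tested. The median log2 fold change of the 10 genes was −0.07, beside 0.08 for all genes tested. Which genes were called depended on the setting, since Id3 was called lower with the trend on exon length removed (log2 −0.42, adjusted p = 0.0498) and Smad6 without control replicate 1 (log2 −0.77, adjusted p = 0.0435), both settings under which Id2 was not called.

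**Figure D1:**
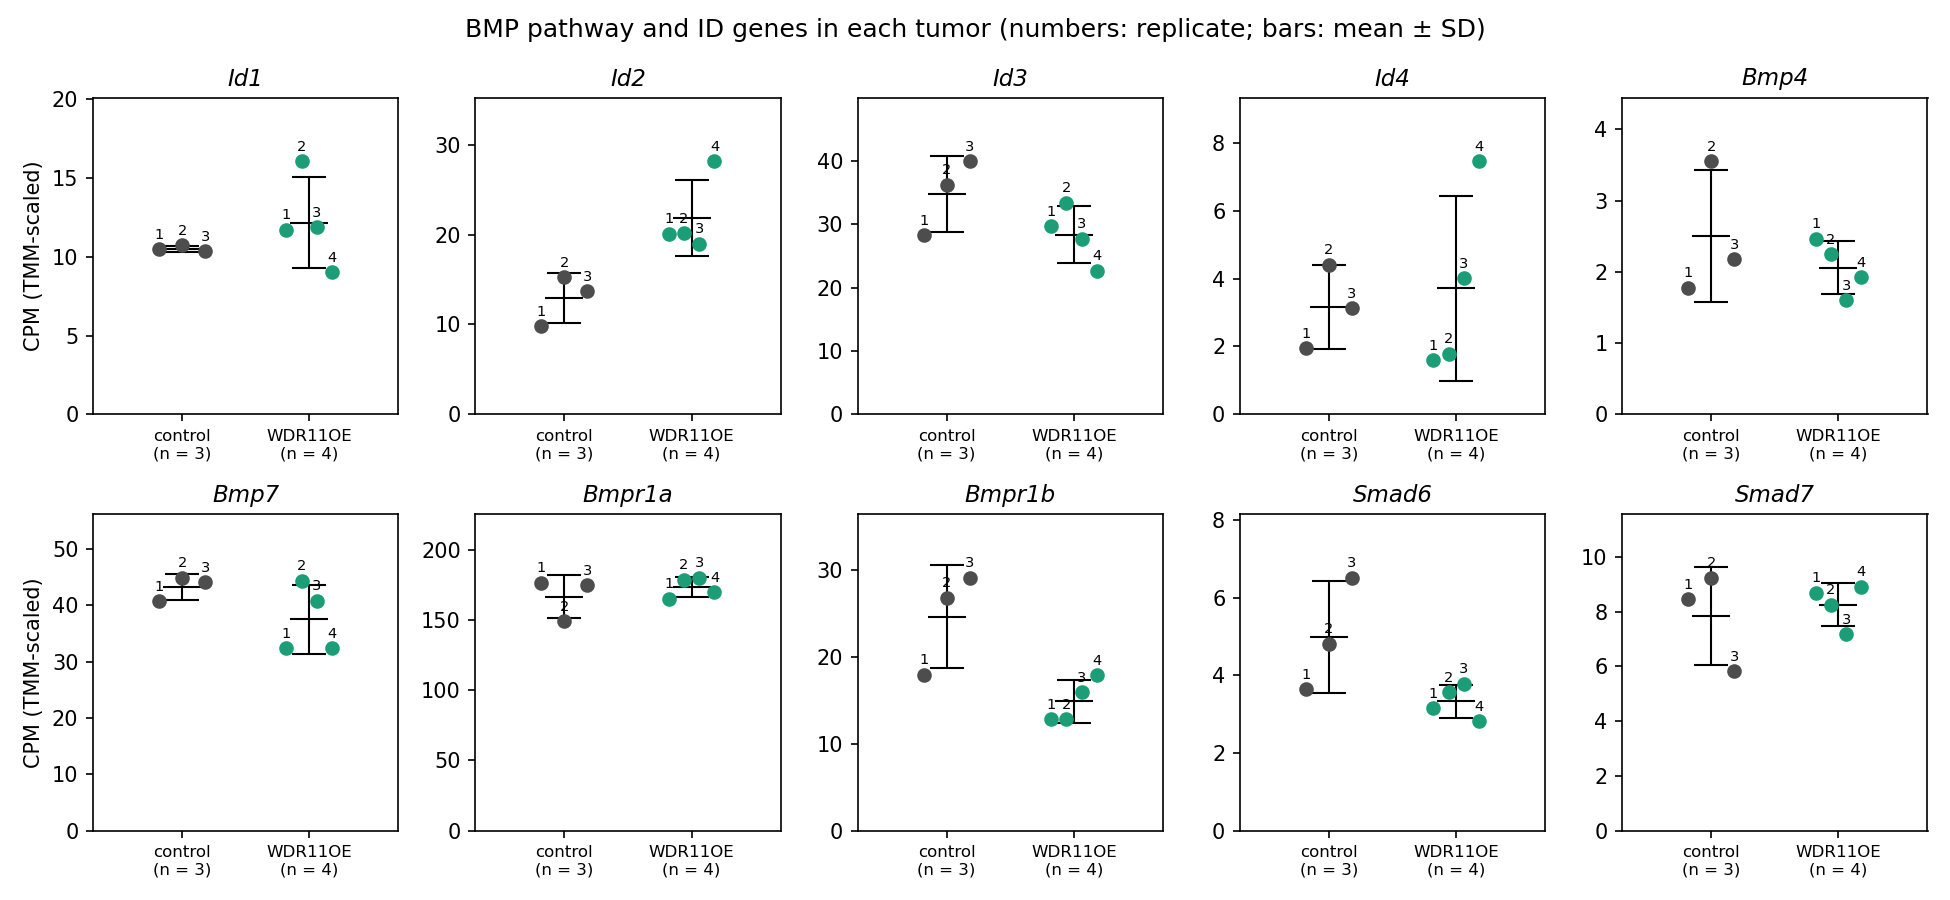
Level of each of the 10 genes in CPM, scaled by TMM, in each of the 3 control and 4 WDR11OE tumors, with the replicate number beside each point and the mean ± SD as bars. The groups separate for Id2, where WDR11OE tumors lie at 19.0 CPM or more, and by a narrow gap for Bmpr1b.

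Among the ligands, Bmp7 was the more abundant and neither gene passed the test. Bmp7 (ENSMUSG00000008999, chr2:172693513-172765822, minus strand) was at 40.7, 44.9 and 44.1 CPM in the controls and at 32.3, 44.4, 40.8 and 32.4 CPM in the WDR11OE tumors. The groups overlapped, with WDR11OE replicates 1 and 4 below every other tumor (log2 fold change −0.21, 95% interval −0.51 to 0.10, edgeR adjusted p = 0.270). Bmp4 (ENSMUSG00000021835, chr14:47003195-47010344, minus strand) was at 1.78, 3.55 and 2.18 CPM in the controls and at 2.46, 2.25, 1.60 and 1.93 CPM in the WDR11OE tumors. Control replicate 2 was the highest of the 7 and the rest were interleaved (log2 fold change −0.28, 95% interval −0.97 to 0.41, edgeR adjusted p = 0.510). Bmp4 overlaps Gm15217 and Gm15222 on the opposite strand, and without a stated strand setting their reads cannot be told apart. Per kb of exon, Bmp7 was at 8.04 to 11.2 CPM and Bmp4 at 0.720 to 1.60 CPM over the 7 tumors.

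Of the type I receptors, the less abundant Bmpr1b fell and Bmpr1a did not pass the test, and the difference between their fold changes was not tested. Bmpr1b (ENSMUSG00000052430, chr3:141500100-141832389, minus strand) was at 17.93, 26.8 and 29.1 CPM in the controls and at 12.8, 12.8, 15.9 and 17.90 CPM in the WDR11OE tumors, a mean of 24.6 ± 5.91 CPM (SD, n = 3) against 14.9 ± 2.51 CPM (SD, n = 4). With TMM scaling every WDR11OE tumor lay below every control, although control replicate 1 and WDR11OE replicate 4 were nearly level. Scaled by library size only, the groups overlapped. The log2 fold change was −0.73 ± 0.20 (SE; 95% interval −1.20 to −0.26; edgeR adjusted p = 0.0285), and the exact permutation p of 0.0286 is the smallest that the 35 ways of choosing 4 of 7 tumors allow. The call was lost without control replicate 2 (adjusted p = 0.0958), control replicate 3 (0.0982), WDR11OE replicate 1 (0.0521) or WDR11OE replicate 3 (0.0557), and with WDR11OE replicates 1 and 2 summed (0.0508), with the direction kept.

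Bmpr1a (ENSMUSG00000021796, chr14:35223920-35316527, minus strand) was at 176.7, 149.0 and 174.8 CPM in the controls and at 165.4, 178.9, 180.4 and 169.8 CPM in the WDR11OE tumors. Its groups overlapped and its log2 fold change was 0.06 (95% interval −0.13 to 0.25, edgeR adjusted p = 0.633), a direction that turned with the GC trend removed (−0.22). Bmpr1a overlaps Gm17110 on the opposite strand. Per kb of exon Bmpr1a exceeded Bmpr1b by a ratio of 9.25, 5.22 and 5.63 in the controls and of 12.1, 13.1, 10.6 and 8.91 in the WDR11OE tumors, so that these ratios overlapped between the groups.

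Neither inhibitory SMAD passed the test. Smad6 (ENSMUSG00000036867, chr9:63800953-63869866, minus strand) was at 3.64, 4.82 and 6.53 CPM in the controls and at 3.15, 3.57, 3.79 and 2.82 CPM in the WDR11OE tumors. Control replicate 1 lay within the range of the WDR11OE tumors, and the other controls lay above it (log2 fold change −0.58, 95% interval −1.14 to −0.03, edgeR adjusted p = 0.0982). With the GC trend removed its log2 fold change was −0.17. Smad7 (ENSMUSG00000025880, chr18:75527183-75555589, plus strand) was at 8.45, 9.25 and 5.82 CPM in the controls and at 8.69, 8.26, 7.18 and 8.92 CPM in the WDR11OE tumors. The groups overlapped, and the fold change lay near 0 (log2 0.08, 95% interval −0.37 to 0.52, edgeR adjusted p = 0.798).

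Of the Id genes, Id2 rose and the other 3 did not pass the test. Id2 (ENSMUSG00000020644, chr12:25778666-25780957, minus strand) was at 9.81, 15.3 and 13.7 CPM in the controls and at 20.1, 20.1, 19.0 and 28.2 CPM in the WDR11OE tumors, a mean of 12.9 ± 2.82 CPM (SD, n = 3) against 21.9 ± 4.26 CPM (SD, n = 4). All 4 WDR11OE tumors were above all 3 controls, with replicate 4 well above the others. Its log2 fold change was 0.76 ± 0.20 (SE; 95% interval 0.28 to 1.24; edgeR adjusted p = 0.0262), and the exact permutation p was again 0.0286. The direction held in all 17 alternatives, but the call was lost with the GC trend removed (log2 0.48, adjusted p = 0.114), with the trend on exon length removed (0.0584), without control replicate 1 (0.0641), control replicate 3 (0.0633), WDR11OE replicate 1 (0.0516) or WDR11OE replicate 2 (0.0521), and with these last replicates summed (0.0511).

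Id3 (ENSMUSG00000007872, chr4:135699412-135701670, plus strand), the Id gene with the highest level per length in the controls, was at 28.3, 36.3 and 40.0 CPM there and at 29.7, 33.4, 27.8 and 22.7 CPM in the WDR11OE tumors. The groups overlapped (log2 fold change −0.29, 95% interval −0.68 to 0.09, edgeR adjusted p = 0.209). Id1 (ENSMUSG00000042745, chr2:152561987-152563146, plus strand) was at 10.5, 10.7 and 10.4 CPM in the controls and at 11.7, 16.1, 11.9 and 9.03 CPM in the WDR11OE tumors. WDR11OE replicates lay on both sides of the closely spaced controls (log2 fold change 0.21, 95% interval −0.25 to 0.67, edgeR adjusted p = 0.458). Id4 (ENSMUSG00000021379, chr13:48356796-48359405, plus strand), the least abundant of the 4, was at 1.95, 4.41 and 3.13 CPM in the controls and at 1.59, 1.78, 4.01 and 7.46 CPM in the WDR11OE tumors. Both groups were widely spread (log2 fold change 0.23, 95% interval −1.15 to 1.61, edgeR adjusted p = 0.798), and the direction turned without control replicate 1 (−0.03) or without WDR11OE replicate 4 (−0.37). Id4 overlaps A330033J07Rik on the opposite strand.

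**Figure D2:**
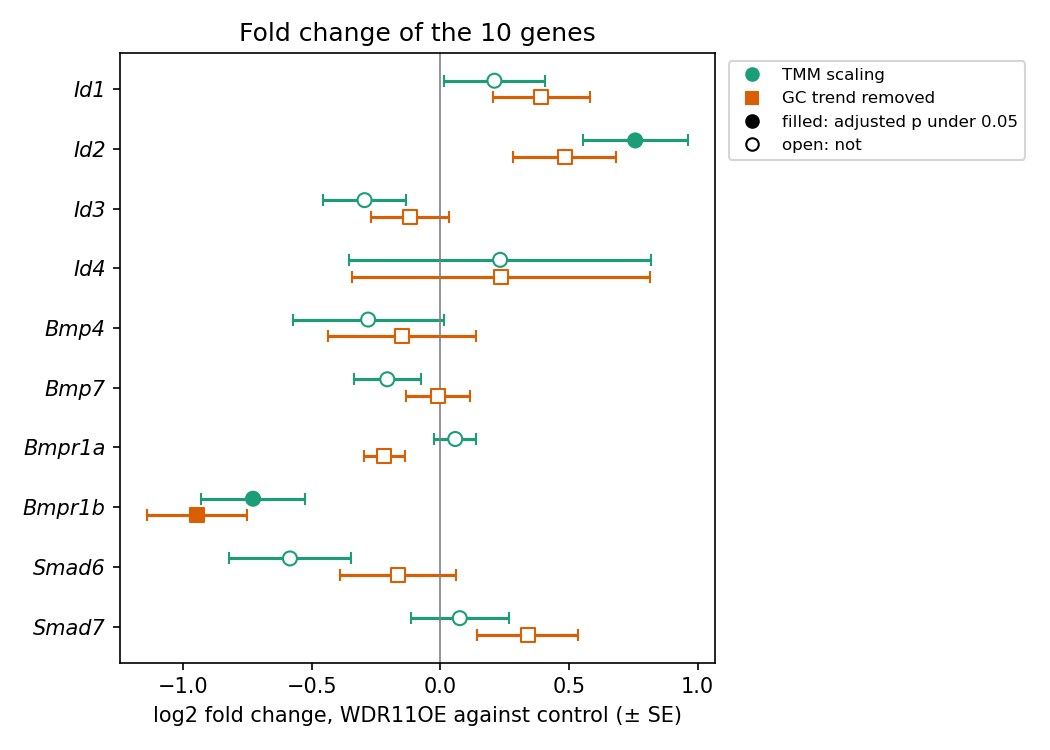
Log2 fold change of WDR11OE against control for the 10 genes, ± SE, with TMM scaling (circles) and with the GC trend removed (squares), where filled points have an adjusted p under 0.05. Bmpr1b is filled under both, and Id2 with TMM scaling only.

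On the scale of CPM per kb of exon, which takes account of exon length but not of GC content, Id3 stood at 15.8, 20.3 and 22.3 in the controls and Id2 at 7.72, 12.03 and 10.8. In the WDR11OE tumors Id3 stood at 16.6, 18.7, 15.5 and 12.7 and Id2 at 15.8, 15.9, 14.9 and 22.2. The ratio of Id2 to Id3 was thus 0.489, 0.594 and 0.483 in the controls and 0.953, 0.850, 0.964 and 1.75 in the WDR11OE tumors, a description without a test. Exon GC content was 42.4% for Id2 and 54.4% for Id3, and the ratios and shares given here keep the GC trend. With that trend removed, log2 fold changes were 0.48 for Id2 and −0.12 for Id3, and neither gene was called. Id2 made up 22.9%, 27.2% and 24.6% of the summed Id level in the controls and 36.4%, 32.1%, 34.7% and 47.1% in the WDR11OE tumors. The sum itself overlapped between the groups, at 33.7, 44.2 and 43.9 CPM per kb in the controls and 43.5, 49.4, 43.1 and 47.1 CPM per kb in the WDR11OE tumors.

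**Figure D3:**
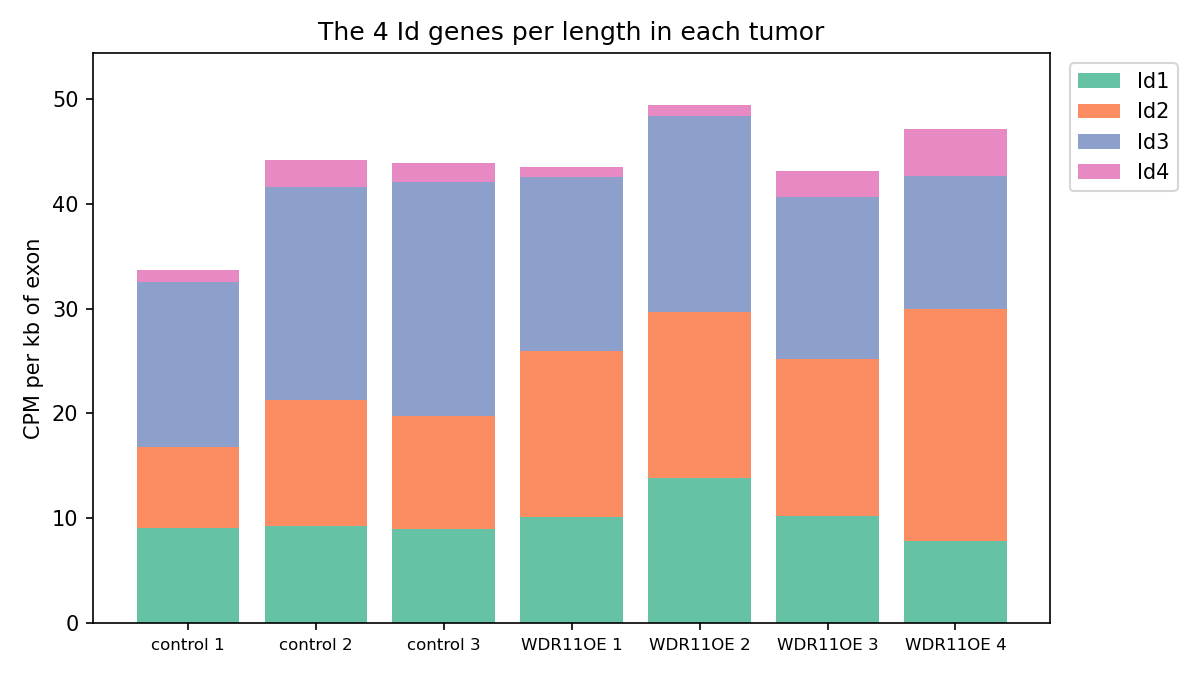
Stacked level of Id1, Id2, Id3 and Id4 in CPM per kb of exon in each of the 7 tumors. The Id2 segment is taller in each WDR11OE tumor than in any control, while the height of the whole bar overlaps between the groups.

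Markers of brain cells varied between the tumors beside these values. The summed level of 8 astrocyte markers was 783, 740 and 519 CPM in the controls and 359, 380, 632 and 1065 CPM in the WDR11OE tumors, and that of 10 cortical neuron markers was 468, 167 and 87.5 CPM in the controls and 22.1, 36.6, 214 and 674 CPM in the WDR11OE tumors. WDR11OE replicate 4, with the highest Id2 and Id4, was the highest of all in both sums, whereas control replicate 1, with the lowest Id2, was the highest control in both. Of the astrocyte markers 1 of 8 was called higher and of the neuron markers 1 of 10 was called lower, and the part of these cells in the Id values was not tested. Markers of granule neuron progenitors, the cells that the line descends from, were mixed. Their sum was 325 to 457 CPM in the controls and 136 to 195 CPM in the WDR11OE tumors, most of it from Ccnd2, a cyclin, which was the only 1 of 6 tested that was called (lower). Pax6 was at 17.2 to 31.2 CPM over the 7 tumors and Zic1 at 1.76 to 16.8 CPM, whereas Atoh1 was at 0 counts in all 7 and Barhl1 at 0 in all but WDR11OE replicate 1.

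By distance between levels over the 7 tumors, centred and scaled, the genes most like Id1 among 14807 were Fam183b (distance 0.530) and H19 (0.577). Foxe1 (0.392) and Wdr54 (0.410) were nearest to Id2, Ndnl2 (0.328) and Zbtb12 (0.387) to Id3, and Plekha4 (0.425) and Bin2 (0.428) to Id4. Distances rest on 7 points that share the 2 conditions and the cell composition of the samples.

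Around these 10 genes, more of the BMP pathway fell than rose in WDR11OE tumors. Of 76 pathway genes, 10 members included, 64 were tested, of which 20 fell and 5 rose. Over all genes tested, 15.8% fell and 18.1% rose, against 31.2% and 7.81% of this list, and its median log2 fold change was −0.39. The same shares of all genes stand beside the counts by role and by marker list below. With the GC trend removed, 18 of 63 fell, 2 rose and the median was −0.27. Over all 17125 genes tested in that setting, 2334 fell, 2471 rose and the median was 0.09. The 18 included Acvr2a (log2 −0.35, edgeR adjusted p = 0.0132), Smad5 (−0.27, 0.0478) and Skil (−0.34, 0.0234). These were not called with TMM scaling alone, where Acvr2a and Skil had log2 fold changes of 0.04 and 0.05. Of the 25 calls, 11 held in all 17 alternatives, 10 lower and 1 higher. The share of calls over all genes that held in this way was not computed.

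Receptors and coreceptors accounted for 6 of the 20 genes that fell, among 10 tested, and none rose. Endoglin (Eng), a coreceptor best known from endothelium, was at 16.01, 25.6 and 17.3 CPM in the controls and at 6.30, 6.67, 8.32 and 5.74 CPM in the WDR11OE tumors (log2 fold change −1.54 ± 0.21 SE, edgeR adjusted p = 0.00199). Rgma, a membrane-anchored BMP coreceptor, was at 142, 132 and 141 CPM in the controls and at 48.5, 57.5, 63.7 and 40.5 CPM in the WDR11OE tumors (log2 fold change −1.40 ± 0.15 SE, edgeR adjusted p = 0.00111). Bmpr2, the type II receptor, also fell (log2 fold change −0.92, edgeR adjusted p = 0.00212), from 102 to 125 CPM in the controls to 52.9 to 72.9 CPM. Calls for Eng, Rgma and Bmpr2 held in all 17 alternatives. Acvrl1, Acvr2b and Bmpr1b were the other 3 that fell, and of these Acvrl1 and Acvr2b also depended on the setting. Acvrl1 lost its call with the GC trend removed (log2 −0.50, adjusted p = 0.0648) and without control replicate 2 (0.0634). Acvr2b had a log2 fold change of 0.02 with the GC trend removed, and lost its call without control replicate 2 (0.0535), control replicate 3 (0.0655), WDR11OE replicate 1 (0.0677) or 2 (0.0564). Of 10 endothelial markers, 3 were called lower (Cdh5, Flt1 and Esam) and 7 were not called. Among the latter Pecam1, Emcn, Ly6c1 and Tek had log2 fold changes of 0.12, 0.19, 0.10 and 0.02. Tie1, Kdr and Cldn5, also not called, had log2 fold changes of −0.77, −0.40 and −0.23. The sum over the 10 lay at 138 to 181 CPM in the controls and at 112 to 122 CPM in the WDR11OE tumors, and the part of these cells in Eng and Acvrl1 was not tested.

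Of 9 ligands tested only Bmp3, an atypical family member that antagonizes other BMPs, passed the test. It was at 6.98, 8.35 and 7.97 CPM in the controls and at 4.22, 3.54, 3.17 and 4.40 CPM in the WDR11OE tumors (log2 fold change −1.02 ± 0.17 SE, edgeR adjusted p = 0.00461). Of the signal-carrying SMADs 2 of 4 fell. Smad1 fell by 0.32 on the log2 scale (edgeR adjusted p = 0.0241) and Smad9 by 0.55 (0.0268), whereas Smad4 and Smad5 had log2 fold changes of −0.23 and −0.19 and did not pass. With the GC trend removed, Smad5 was called lower (log2 −0.27, edgeR adjusted p = 0.0478) and Smad4 was not (0.0505). Smad1 was called in 10 of 17 alternatives, and its call was lost with the trend on exon length removed (adjusted p = 0.138) and without control replicate 2 (0.0813), control replicate 3 (0.0736), WDR11OE replicate 1 (0.0524), 2 (0.0766) or 3 (0.0594). Smad9 was called in 13 of 17, and not without control replicate 1 (0.0617), 2 (0.0625) or 3 (0.0743) or WDR11OE replicate 1 (0.0576).

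Inhibitors moved in both directions, as did genes at large. Inside the cell 4 of 10 fell (40%) and 2 rose (20%), beside 15.8% and 18.1% of all genes tested. Ski, a corepressor of SMADs, was at 102, 91.2 and 95.4 CPM in the controls and at 36.2, 36.9, 44.7 and 43.9 CPM in the WDR11OE tumors (log2 fold change −1.25 ± 0.10 SE, edgeR adjusted p = 0.000859). Fkbp1a, which binds type I receptors and holds them inactive, was at 132, 141 and 157 CPM in the controls and at 60.9, 63.0, 71.1 and 60.8 CPM in the WDR11OE tumors (log2 fold change −1.17 ± 0.09 SE, edgeR adjusted p = 0.000858). Smurf1 and Tob1 also fell, and their calls held in all 17 alternatives. The calls of the 2 that rose did not. Smurf2 (log2 fold change 0.37) was called in 13 of 17 alternatives, and lost its call without a filter and without WDR11OE replicate 1 (adjusted p = 0.113) or 2 (0.103). Ppm1a (log2 fold change 0.22) was called in 4 of 17 alternatives, was lost with every tumor left out in turn (adjusted p = 0.0574 to 0.195), and had a log2 fold change of 0.03 with the GC trend removed. Outside the cell and at the receptor, 3 of 18 fell (Fstl1, Fstl3 and Twsg1, 16.7%) and 2 rose (11.1%), shares near or below those of all genes. Chrdl1, a secreted BMP antagonist, was at 4.61, 2.77 and 2.57 CPM in the controls and at 6.87, 6.95, 7.12 and 7.78 CPM in the WDR11OE tumors (log2 fold change 1.11 ± 0.24 SE, edgeR adjusted p = 0.0106), with no overlap and a call in all 17 alternatives. Bambi, a pseudoreceptor, rose by 0.58 on the log2 scale (edgeR adjusted p = 0.0209), but was called in 10 of 17 alternatives. Its call was lost with the GC trend removed (adjusted p = 0.0918), without a filter (0.0629) and without control replicate 1 (0.0614), control replicate 2 (0.0587), WDR11OE replicate 1 (0.0501) or WDR11OE replicate 2 (0.0726). Of the 3 that fell, Fstl1 was called in all 17 alternatives, Twsg1 in 12 and Fstl3 in 5. Leaving out control replicate 1 (adjusted p = 0.0521), control replicate 3 (0.0686), WDR11OE replicate 1 (0.0672) or 2 (0.0614) ended the call of Twsg1, and that of Fstl3 was lost without any tumor but control replicate 1 (adjusted p = 0.0519 to 0.169).

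Among 17 tested target genes, which include the Id genes and share Smad6, Smad7, Smad9 and Bambi with other lists, 5 fell and 2 rose (Id2 and Bambi), and with the GC trend removed 3 of 16 fell and 0 rose. Msx1, a homeobox gene induced by BMPs, was at 2.72, 5.13 and 5.06 CPM in the controls and at 1.82, 2.48, 1.60 and 1.58 CPM in the WDR11OE tumors (log2 fold change −1.20 ± 0.29 SE, edgeR adjusted p = 0.0180), and lost its call with the GC trend removed (adjusted p = 0.0550) and without control replicate 2 (0.0677), control replicate 3 (0.0624), WDR11OE replicate 1 (0.0581) or 3 (0.0506). Smad9, Dlx5, Hey1 and Runx2 were the other 4 that fell. Of these Dlx5 was called in all 17 alternatives, and Hey1 in all but those without control replicate 2 (0.0643) or 3 (0.0627). Runx2 was called in 8 of the 15 alternatives that could be run for it, and of the 7 tumors left out in turn its call held only without control replicate 3 (adjusted p otherwise 0.0521 to 0.0817). Of the E proteins and bHLH factors that ID proteins bind or oppose, 2 of 7 tested fell. Tcf3, which encodes the E proteins E12 and E47, was at 160, 164 and 191 CPM in the controls and at 107, 119, 115 and 91.3 CPM in the WDR11OE tumors (log2 fold change −0.67 ± 0.11 SE, edgeR adjusted p = 0.00396), and its log2 fold change was −0.26 with the GC trend removed (adjusted p = 0.0798). Tcf4 was the other, called in 9 of 17 alternatives and lost without control replicate 1 (0.106), control replicate 3 (0.106), WDR11OE replicate 1 (0.0585), 2 (0.0531) or 3 (0.0719) and with the trend on exon length removed (0.269). Tcf12 did not pass (log2 −0.21, edgeR adjusted p = 0.0912), but was called lower with the GC trend removed (log2 −0.36, adjusted p = 0.0210).

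**Figure D4:**
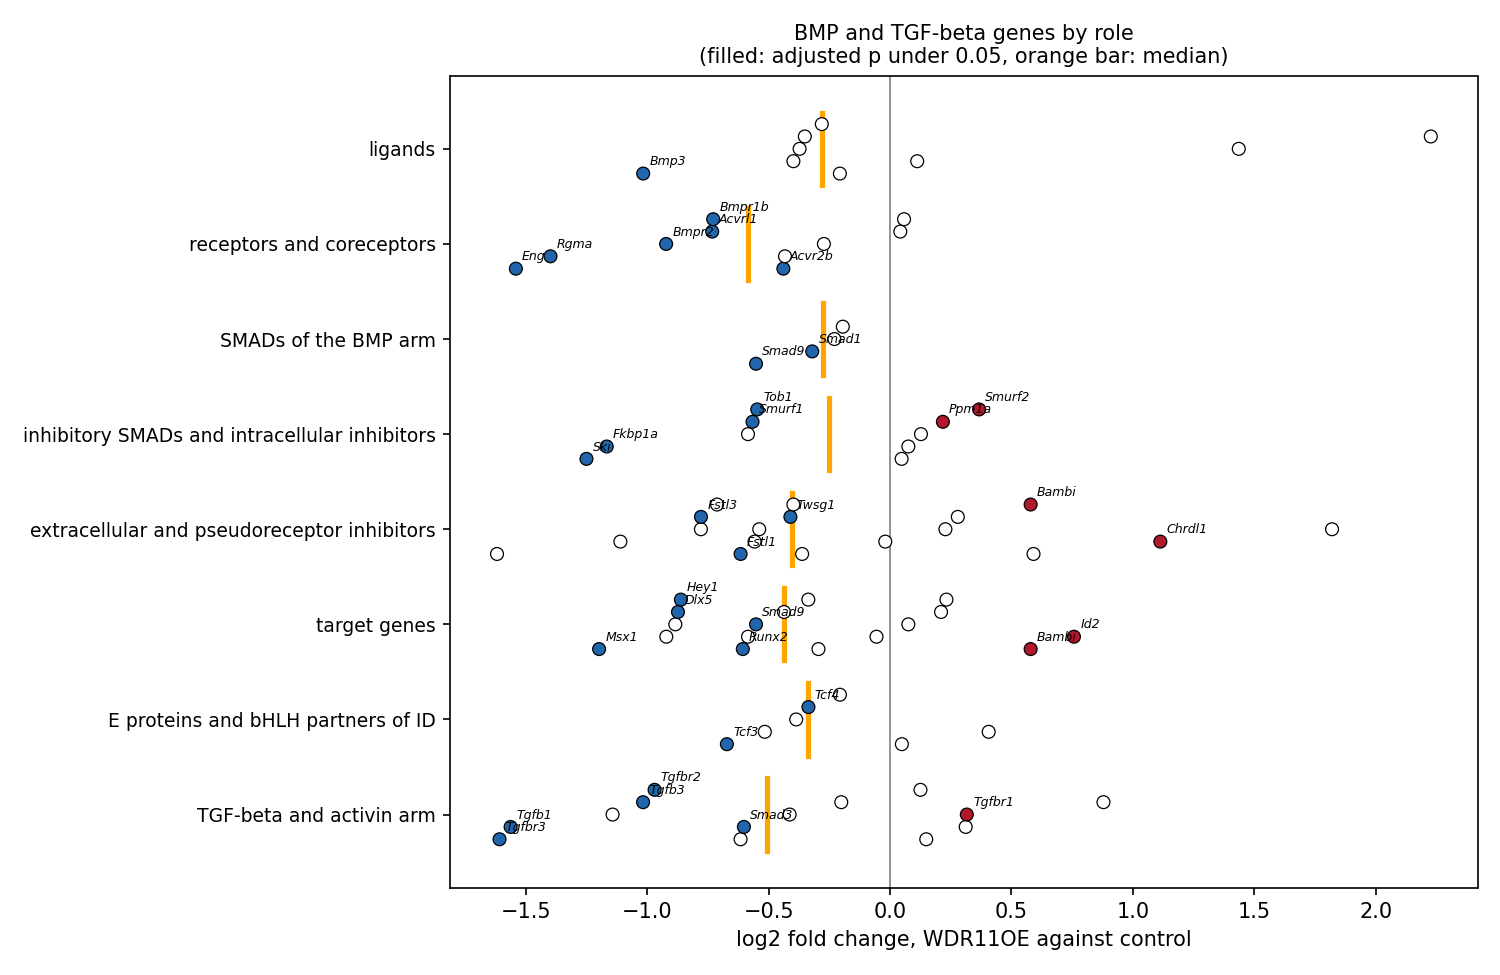
Log2 fold change of each tested BMP and TGF-beta gene, and of the E proteins and bHLH partners of ID, by role. Points are genes, filled where the adjusted p is under 0.05 (blue lower, red higher), with an orange bar at the median of each role. Smad6, Smad7, Smad9 and Bambi are drawn under each role that lists them. Every role has its median below 0, and receptors hold 6 filled points, all lower.

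In the related TGF-beta and activin arm 5 of 14 tested genes fell and 1 rose. The ligand Tgfb3 was at 29.5, 29.9 and 30.6 CPM in the controls and at 15.9, 14.9, 16.2 and 12.3 CPM in the WDR11OE tumors (log2 fold change −1.02 ± 0.11 SE, edgeR adjusted p = 0.00120). Tgfbr3, a coreceptor also called betaglycan, was at 12.8, 16.05 and 14.9 CPM in the controls and at 3.34, 3.41, 5.67 and 6.71 CPM in the WDR11OE tumors (log2 fold change −1.61 ± 0.28 SE, edgeR adjusted p = 0.00487). Tgfb1 was at 9.50, 29.7 and 29.1 CPM in the controls and at 8.17, 7.46, 9.09 and 6.16 CPM in the WDR11OE tumors (log2 fold change −1.56 ± 0.38 SE, edgeR adjusted p = 0.0171). Control replicate 1 stood close to the WDR11OE tumors for Tgfb1, whose call was lost without control replicate 2 (adjusted p = 0.0665) or control replicate 3 (0.0625) and with the GC trend removed (log2 −1.11, adjusted p = 0.0549). Tgfbr2 and Smad3 also fell and Tgfbr1 rose. Tgfbr2 was called in all 17 alternatives. Smad3 was called in 12, and not without control replicate 1 (0.0715), control replicate 3 (0.0704) or WDR11OE replicate 1 (0.0816) or with the GC trend removed (0.0669). Tgfbr1 was called in 8, with a log2 fold change of 0.04 after the GC trend was removed, and lost its call without control replicate 1 (0.0620), control replicate 2 (0.0735), WDR11OE replicate 1 (0.143), 2 (0.121) or 3 (0.0520).

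Some markers of other cells differed with the condition beside these lists. Of 9 fibroblast and mural markers, 3 were called lower and 6 were not called. Among these 6, Dcn, Lum and Rgs5 had log2 fold changes of 1.05, 0.46 and 0.22, and Col1a1, Col1a2 and Acta2 of −1.13, −1.04 and −0.45. The sum over the 9 markers was 3549 to 4400 CPM in the controls and 1468 to 1867 CPM in the WDR11OE tumors. It was mostly Col3a1 (2722 to 3264 CPM against 1047 to 1234 CPM). All 9 skeletal muscle markers were called higher, their sum being 5.20 to 9.25 CPM in the controls and 48.8 to 136 CPM in the WDR11OE tumors. Oligodendrocyte and microglia markers had no call. The part of these cells in the lists was not tested.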

How the data were processed

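RNA from 7 mouse G3 medulloblastomas was sequenced, and the authors deposited whole-number counts of reads per gene for each tumor, without normalization. Per the study's methods the StrongArm pipeline mapped the reads to NCBIM37.67, and HT-seq counted them on a GENCODE annotation. The submitters' processing notes also name CASAVA 1.7, STAR and BWA. The strand setting of the counting is not given in the sources used here, and the kit in the labels and the stranded protocol in the paper differ.

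The deposited counts hold 34592 genes. In R 4.3.3, genes kept by edgeR 4.0.16's filterByExpr were scaled by TMM and compared by its quasi-likelihood test (two-sided, condition as the only term), and p-values were adjusted by Benjamini-Hochberg over all genes tested. limma 3.58.1 with voom, the test named in the paper, and DESeq2 1.42.0 were alternatives, as were other scalings and filters, offsets that remove a per-tumor loess trend on exon GC content or exon length, leaving out each tumor, and summing WDR11OE replicates 1 and 2. The fit was first tested on simulated data. Exon length, GC content and coordinates came from GENCODE vM1 on NCBIM37, which holds 33606 of the genes. Single genes were also compared by an exact permutation test on log2 CPM with a prior count of 2.

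The 10 members and the lists by role were chosen with earlier results of these data known. Beside the members, the text names those called genes of each role list that differed by 1 or more on the log2 scale, or else the called gene with the smallest p in each direction, and for each Id gene the 2 genes nearest to it over the 7 tumors. Bmpr2, Acvrl1, Acvr2b, Smad9, Bambi, Smurf1, Smurf2, Tob1, Ppm1a, Fstl1, Fstl3, Twsg1, Dlx5, Hey1, Runx2, Tcf4, Tgfbr1, Tgfbr2 and Smad3 are not covered by this rule and were picked with their values in view, as were Smad4, Smad5, Acvr2a, Skil, Tcf12 and the markers named by gene. Replicate numbers follow the order of the samples and pair no tumors.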

Additional observations from a re-analysis of the deposited data

Results flagged for a closer look

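Id2 in WDR11OE replicate 4 lay far from the other WDR11OE tumors. On the log2 CPM scale its gap to the nearest of them took up 0.8505 of the range of the group, above the critical value of 0.829 for 4 samples. The value was 28.2 CPM, beside 19.0 to 20.1 CPM in the other 3. Each of the 10 genes was examined in this way among the WDR11OE tumors, and chance passes about 1 in 20 of such groups. The same tumor had the highest sums of astrocyte and cortical neuron markers, and their part in its Id2 level was not tested.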

How the results depend on the processing

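No paired analysis was possible because the labels give the tumors no replicate numbers shared between the groups. Of the 10 genes 2 were called. This became 1 with the GC content offset, 0 with WDR11OE replicates 1 and 2 summed, 0 at an adjusted p under 0.01, and 0 to 2 when 1 tumor was left out. The 25 called genes of the pathway list became 15 with those replicates summed, 10 at 0.01 and 13 to 24 with 1 tumor left out. The 5 higher became 3 without a filter, 2 with the GC content offset, 1 with the replicates summed, 0 at 0.01 and 1 to 5 with 1 tumor left out. The 20 lower became 10 at 0.01 and 11 to 21 with 1 tumor left out. The lowest counts came without control replicate 2 (14 called, 11 lower), control replicate 3 (13 lower) and WDR11OE replicate 1 (13 called, 12 lower). Calls over all genes tested fell too, from 3150 higher and 2744 lower to 1629 and 2087 with the replicates summed. Without WDR11OE replicate 1 the calls over all genes were 1560 higher and 2011 lower, and without control replicate 2 they were 2045 and 2168. Scaled by library size only, 1 of the 10 genes (Id2) in place of 2 had groups that did not overlap, and those of Bmpr1b overlapped. Directions turned for Bmpr1a (−0.22), Acvr2b (0.016), Acvr2a (−0.35) and Skil (−0.34) with the GC content offset. With the exon length offset the direction turned for Fam183b (−0.025). With 1 tumor left out, log2 fold changes ran from −0.37 to 0.55 for Id4, −0.48 to 0.058 for Bmp4, −0.019 to 0.097 for Bmpr1a, −0.10 to 0.21 for Smad7, −0.44 to 0.66 for Plekha4 and −0.38 to 0.69 for Bin2. The cause was not tested. Adjusted p-values over the alternatives ran from 0.00346 to 0.114 for Id2 and from 0.00142 to 0.0982 for Bmpr1b.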
